A study of Phaseolus vulgaris with 6 samples.

Results

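The genes described here are the glycosyl hydrolases and beta-galactosidases of common bean (Phaseolus vulgaris): 167 of the 27012 genes in the deposited expression table. They were chosen by the words of their gene description, which had to hold "glycosyl hydrolase", "beta-galactosidase" or "beta-xylosidase" and neither "xyloglucan", "expansin" nor "invertase". RNA sequencing of the top of the stem compared the wild type A18 (3 samples) with the mutant nts (3 samples). The labels name no further allele and do not say which gene is mutated in nts nor whether each sample was taken from its own plants, so that the p-values cover only the spread between these samples, which may be technical. Both genotypes were sown directly in pots, grown at 25 °C with 14 h of light and 10 h of darkness, and sampled when they began to flower, at a time when the mutant's stem tip could be told from that of the wild type.

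Glycosyl hydrolases are enzymes that cut the bonds between sugars. In a growing stem many of them act in the cell wall, where endo-1,4-beta-glucanases cut cellulose-like chains, mannanases, xylanases, xylosidases and galactosidases trim the hemicelluloses and pectin side chains around cellulose, and 1,3-beta-glucanases remove callose, the polymer that narrows the channels between plant cells. Others trim the sugar chains of glycoproteins in the endoplasmic reticulum and Golgi apparatus, or split sucrose.

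Total counts ran from 40728394 to 62695701 per library. A18 replicate 2 and nts replicate 3 stood apart from the other libraries of their genotypes: on the first principal component, which held 54.8% of the variance, they lay at -36.1 and 40.3, between the other A18 libraries (-112 and -116) and the other nts libraries (122 and 102). The same 2 libraries were nearest to the other genotype in secondary wall markers: the summed level of 60 such genes was 10500, 7900 and 10300 FPKM in A18 replicates 1 to 3 and 1200, 558 and 2800 FPKM in nts replicates 1 to 3 (FPKM, a level scaled by gene length and library size). Of the 51 of these markers that were tested, 46 had a log2 change (nts minus A18) below 0, with a median of -4.28, and FASCICLIN-like arabinogalactan-protein 11 (Phvul.011G076900), a wall protein of fibres and xylem, had no more than 0.517 FPKM in an nts library, while another gene of that name (Phvul.002G241700) had a mean of 556 ± 317 FPKM in nts and 971 ± 94 FPKM in A18 (SD, n = 3). Markers of shoot meristem (KNOTTED-like genes among them) and of green tissue were present in both genotypes, the former with a sum of 1050 to 1190 FPKM in A18 and 717 to 1180 FPKM in nts. In whole stem tips, fewer cells of a type and less RNA per cell cannot be told apart.

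Of the 167 genes, 133 had enough counts to be tested and 15 had no count in any library. With edgeR's quasi-likelihood test and an adjusted p under 0.05, 0 of the 133 were called, where 20 of all 21126 tested genes were (0.0947%, with 0.0331% higher and 0.0615% lower). Other tests called more in both: DESeq2 called 29 glycosyl hydrolase genes and 10.2% of all genes it tested, and limma on log2 FPKM called 5 with a pseudocount of 1 (2.07% of all) and 6 with 0.1 (2.13%). Limma's voom with a quality weight per library called 44 (24.1%). In edgeR, leaving out A18 replicate 2 gave 10 (4.38%), leaving out nts replicate 3 gave 10 (4.45%), and leaving out both gave 41 (19.9%). The lowest adjusted p of a glycosyl hydrolase gene was 0.0564, and 10 lay under 0.1, a level that 3.01% of all tested genes reached. At an unadjusted p under 0.05, 24 were higher in nts (8.39% of all tested genes were) and 18 lower (9.58%). The study's design text names other thresholds, an unadjusted p of at most 0.05 and a log2 change of 2 or more in either direction. Applied here to the log2 changes and p-values of the edgeR fit, these thresholds gave 7 genes higher in nts, against 2.06% of all tested genes. They gave 8 lower, against 3.37% (5.43% in either direction). These 15 genes are called higher or lower at the study's thresholds from here on. In 14 of them the 3 nts libraries lay wholly on one side of the 3 A18 libraries. The choice by size and p in the same libraries makes this likely, so it is not separate evidence. Over all 133, the median log2 change was 0.10, against 0.0 for all tested genes, and 72 lay above 0 (50.2% of all tested genes did) and 61 below. In 21 genes all nts libraries lay above all A18 libraries (10.0% of all tested genes) and in 20 all lay below (14.3%; 24.3% for both together).

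By enzyme group, the endo-beta-mannanases held 5 of the 15 genes, the beta-galactosidases 5, the endo-1,4-beta-glucanases of family 9 held 3 and the 1,3-beta-glucanases 2. The beta-glucosidases (7 tested), beta-xylosidases (6), family 10 xylanases (5), glycan-processing enzymes (12), sucrose-cleaving enzymes (6) and the remaining genes (18) held 0. Over all tested genes 5.43% passed in either direction, so a count of 0 in groups this small does not show a lack of change. In 3 of the groups that held any, some genes were higher and others lower.

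**Figure D1:**
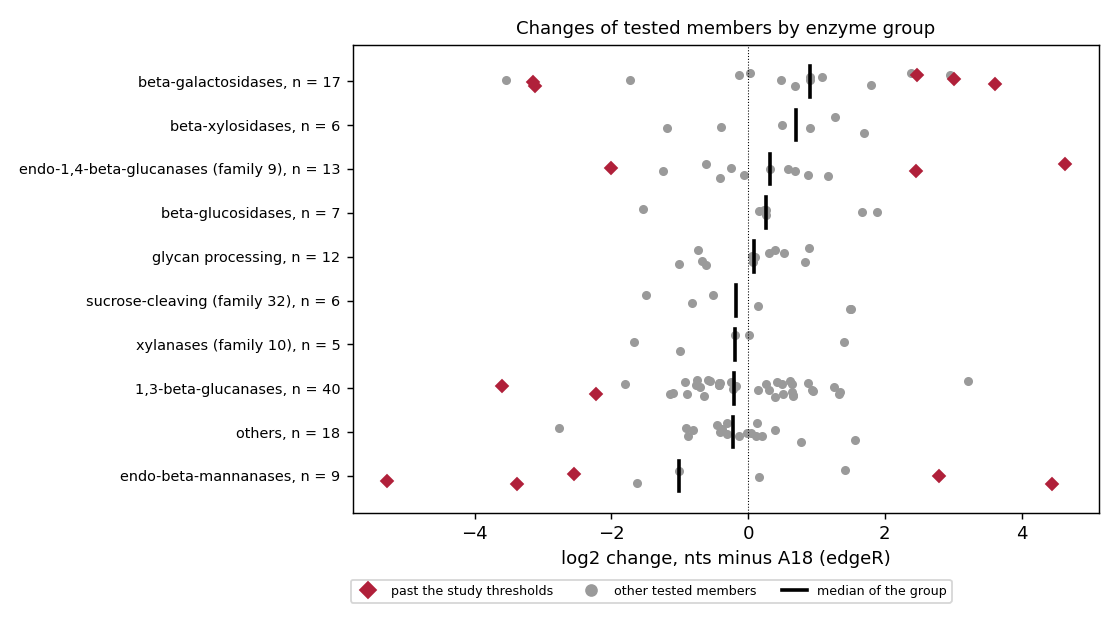
Each point is a tested gene of the group on the vertical axis, with n the number tested, and the horizontal axis gives its log2 change (nts minus A18, edgeR). Black bars are group medians, from -1.01 for the endo-beta-mannanases to 0.91 for the beta-galactosidases, and diamonds are the 15 genes past the study's thresholds.

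**Figure D2:**
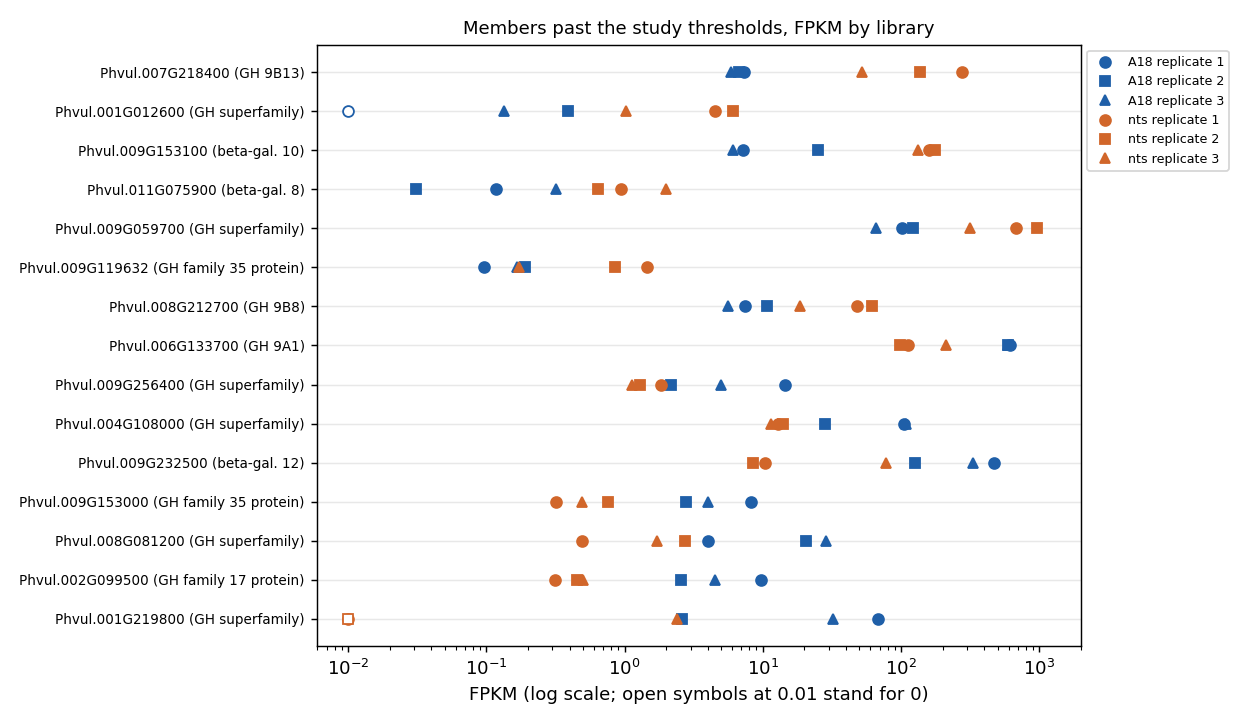
FPKM on a log axis of the 15 genes past the study's thresholds, with 1 symbol per library (blue for A18, orange for nts), ordered by log2 change from 4.63 at the top to -5.28 at the bottom, and open symbols where a library had 0 counts. Blue and orange overlap in Phvul.009G119632, and A18 replicate 2 and nts replicate 3 often lie nearest to the other genotype.

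The endo-1,4-beta-glucanases of family 9 held the gene with the largest positive log2 change of the 133 tested. Glycosyl hydrolase 9B13 (Phvul.007G218400, chromosome 7, 34079777 to 34082134) measured 7.32, 6.68 and 5.93 FPKM in A18 and 278, 138 and 52.6 FPKM in nts. Each nts library was several-fold above every A18 library, and they differed widely among themselves. The log2 change was 4.63 ± 0.64 (SE), with an adjusted p of 0.0564 in edgeR. A second gene of the secreted 9B class, glycosyl hydrolase 9B8 (Phvul.008G212700, chromosome 8, 56075865 to 56079155), measured 7.39, 10.8 and 5.59 FPKM in A18 and 47.7, 61.2 and 18.5 FPKM in nts. The genotypes did not overlap, with a log2 change of 2.46 ± 0.51 (SE, adjusted p 0.0896). Both genes stayed past the study's thresholds when any 1 library was left out.

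The family 9 gene with the most transcript in A18 had a lower level in nts. It is described as glycosyl hydrolase 9A1 (Phvul.006G133700, chromosome 6, 24148078 to 24151209), the name that in Arabidopsis belongs to KORRIGAN, a membrane-bound glucanase needed for normal cellulose synthesis. It measured 615, 590 and 599 FPKM in A18 and 112, 98.2 and 213 FPKM in nts. The A18 libraries were close to each other, and all nts libraries lay far below them. Its log2 change was -2.01 ± 0.38 (SE, adjusted p 0.0804), so close to the threshold on size that leaving out A18 replicate 2, nts replicate 1 or nts replicate 2 moved it to the other side, with a smallest change of -1.77 and unadjusted p-values up to 0.0088 in edgeR.

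In all 4 genes carry the 9A1 description, of which Phvul.009G135932 and Phvul.009G135866 had means of only 0.267 and 0.0214 FPKM over the 6 libraries. The other abundant one differed from it. Phvul.003G089600 measured 157, 234 and 111 FPKM in A18 and 278, 235 and 214 FPKM in nts. The genotypes overlapped, and the log2 change was 0.58 ± 0.37 (SE, adjusted p 0.456). As a ratio of FPKM, the chromosome 6 gene stood at 3.92, 2.52 and 5.40 times the chromosome 3 gene in A18 and at 0.403, 0.418 and 0.995 times in nts. The chromosome 6 gene was thus the more abundant of the pair in each A18 library and the less abundant in each nts library, by the smallest margin in nts replicate 3. Secondary wall genes moved in the same direction as the chromosome 6 gene: among the related genes of cellulose synthesis, cellulose synthase A4 (Phvul.009G242700), a subunit of the secondary wall complex, measured 491, 410 and 644 FPKM in A18 and 10.1, 6.04 and 143 FPKM in nts. The part of the marker difference in the 9A1 values was not tested.

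**Figure D3:**
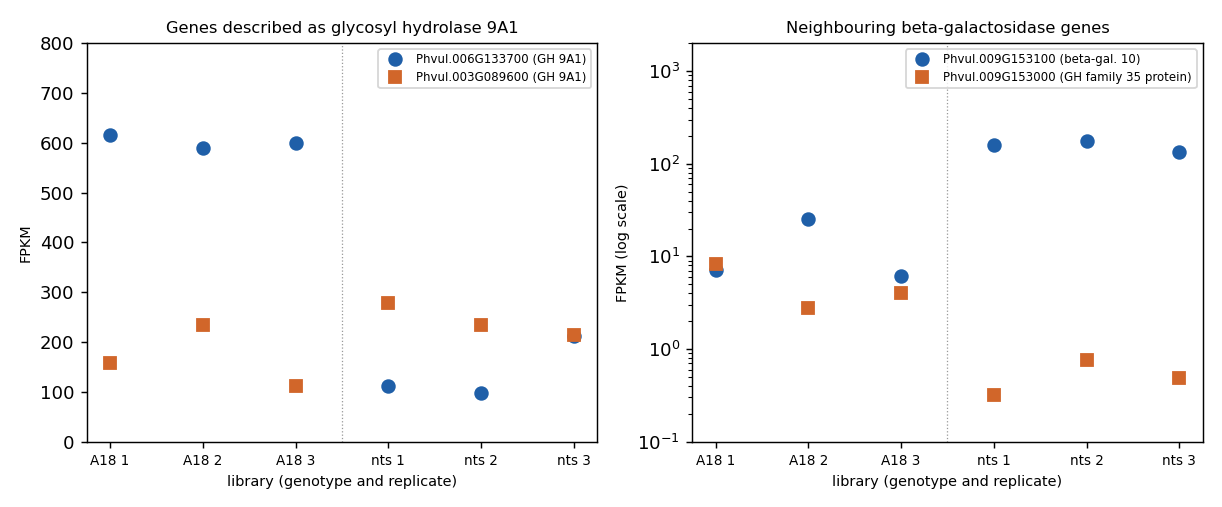
FPKM per library of the 2 abundant genes among 4 described as glycosyl hydrolase 9A1 (left, linear axis) and of 2 neighbouring beta-galactosidase genes (right, log axis). On the left the circles lie at 590 to 615 FPKM in A18 and at 98.2 to 213 FPKM in nts, and the squares between 111 and 278 FPKM throughout; on the right the circles and squares separate in nts.

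The 21 family 9 genes summed to 1270, 1290 and 1030 FPKM in A18 and 1190, 1180 and 840 FPKM in nts, and these ranges overlap. The 9A genes summed to 772, 824 and 711 FPKM in A18 and 390, 333 and 428 FPKM in nts. The 9B genes summed to 213, 303 and 177 FPKM in A18 and 620, 447 and 301 FPKM in nts, where nts replicate 3 lay just below A18 replicate 2. Glucanases of the 9C class carry a carbohydrate-binding part, and the abundant 9C2 gene (Phvul.002G297600) measured 286, 158 and 139 FPKM in A18 and 176, 403 and 111 FPKM in nts. Its values overlapped fully, and its log2 change of 0.32 ± 0.52 (SE, adjusted p 0.792) turned negative (-0.30) without nts replicate 2. Glycosyl hydrolase 9B7 (Phvul.009G016100) measured between 90.5 and 253 FPKM with overlap and an adjusted p of 0.968. Of the other family 9 genes, 9B18 (Phvul.011G039400) was separated by genotype at a low level, with means of 5.86 FPKM in A18 and 8.95 FPKM in nts.

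The endo-beta-mannanases are 11 genes described only as members of the glycosyl hydrolase superfamily, whose enzyme number in the table is that of mannan endo-1,4-beta-mannosidase, which cuts the backbone of mannan hemicelluloses. Of the 9 that were tested, 2 were higher at the study's thresholds and 3 lower, against 2.06% and 3.37% of all tested genes. An unadjusted p under 0.05 was reached by 7, of which 3 were higher and 4 lower, against 8.39% and 9.58% of all tested genes. The most abundant, Phvul.009G059700 (chromosome 9, 10943248 to 10946298), measured 102, 123 and 65.9 FPKM in A18 and 678, 962 and 316 FPKM in nts. All nts libraries lay above all A18 libraries, and over the 6 libraries it had the highest mean level of all 167 genes. Its log2 change was 2.79 ± 0.50 (SE, adjusted p 0.0735 in edgeR).

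The 3 lower mannanase genes differed in how far their A18 libraries agreed. Phvul.004G108000 (chromosome 4, 37625994 to 37629677) measured 106, 28.4 and 108 FPKM in A18 and 12.8, 13.9 and 11.4 FPKM in nts, with a log2 change of -2.55 ± 0.46 (SE, adjusted p 0.0760). The nts libraries agreed closely, and A18 replicate 2 was the A18 library nearest to them. Phvul.008G081200 (chromosome 8, 7889519 to 7892057) measured 4.0, 20.6 and 28.9 FPKM in A18 and 0.495, 2.75 and 1.71 FPKM in nts, with a log2 change of -3.38 ± 0.91 (SE, adjusted p 0.139). Phvul.001G219800 (chromosome 1, 47531001 to 47533311) measured 68.7, 2.60 and 32.1 FPKM in A18, was at 0 in nts replicates 1 and 2, and measured 2.39 FPKM in nts replicate 3. For this gene A18 replicate 2 and nts replicate 3 were almost equal, the SE of the log2 change of -5.28 was 2.17, and the gene missed the thresholds without any 1 of A18 replicate 1, A18 replicate 3, nts replicate 1 or nts replicate 2, with p-values up to 0.12.

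The second mannanase gene higher at the study's thresholds, Phvul.001G012600 (chromosome 1, 958568 to 961917), was scarce, at 0, 0.390 and 0.134 FPKM in A18 and 4.53, 6.09 and 1.02 FPKM in nts (log2 change 4.44 ± 1.42, SE), and it missed the thresholds without A18 replicate 3 or nts replicate 2 (p up to 0.0568). Without overlap, 3 of the 9 tested mannanase genes were higher and 4 lower, against 10.0% and 14.3% of all tested genes. Among these mannanase genes, 2 fell short of the size threshold. Phvul.002G033500 was higher in nts, at 23.9, 8.04 and 16.5 against 26.9, 45.2 and 48.4 FPKM (log2 change 1.42). Phvul.010G058300 was lower, at 11.7, 10.3 and 26.1 against 4.75, 4.56 and 5.18 FPKM (log2 change -1.63). Phvul.011G118900 overlapped, at 56.0, 174 and 87.0 FPKM in A18 and 36.4, 36.6 and 80.0 FPKM in nts (log2 change -1.01 ± 0.56, SE). Summed over the 11 genes the mannanase level was 385, 379 and 377 FPKM in A18 and 778, 1090 and 477 FPKM in nts, and Phvul.009G059700 alone made up more of the nts sum than all the others together.

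**Figure D4:**
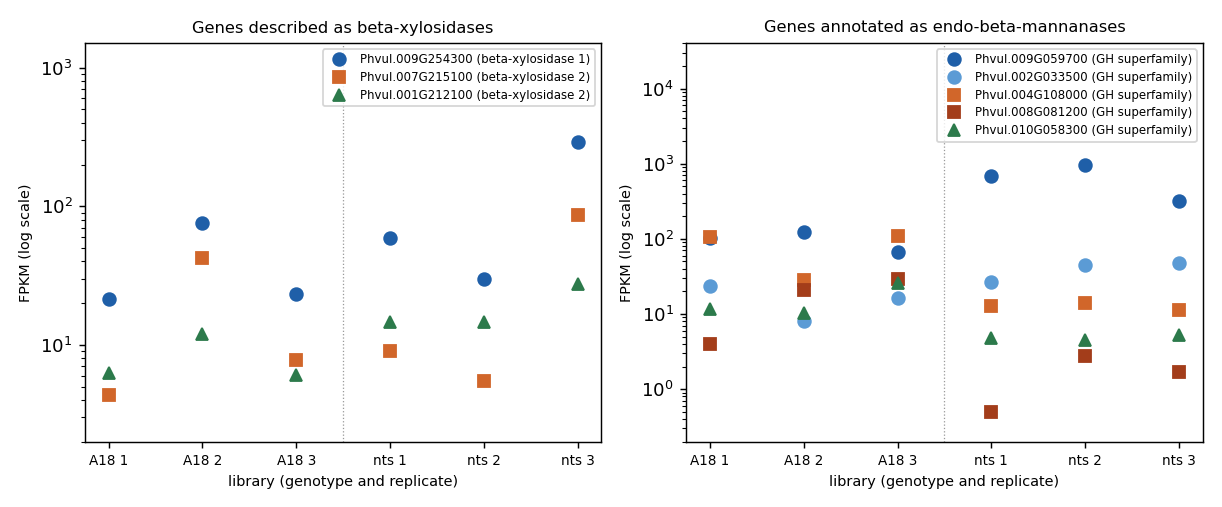
FPKM per library on log axes of the 3 genes described as beta-xylosidases (left) and of 5 endo-beta-mannanase genes (right). On the left A18 replicate 2 and nts replicate 3 hold the highest values of their genotypes; on the right Phvul.009G059700 and Phvul.002G033500 (blue) are higher in nts and the other 3 genes lower.

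The beta-xylosidases release xylose from xylan chains, and 2 of them were highest in the libraries that stood apart. Beta-xylosidase 1 (Phvul.009G254300), whose Arabidopsis counterpart also removes arabinose, measured 21.3, 75.5 and 23.4 FPKM in A18 and 59.3, 29.8 and 292 FPKM in nts. One of the genes described as beta-xylosidase 2 (Phvul.007G215100) measured 4.34, 42.6 and 7.74 FPKM in A18 and 9.09, 5.44 and 86.7 FPKM in nts. In both, A18 replicate 2 and nts replicate 3 exceeded the other 4 libraries, the genotypes overlapped, and the SE was 0.99 for a log2 change of 1.70 and 1.31 for one of 0.90. Without nts replicate 3 the second turned to -1.35, and without A18 replicate 2 it was 2.66. In all, 6 of the glycosyl hydrolase genes had both of these libraries above the other 4, among them beta-galactosidase 8 (Phvul.005G135933) at 29.9, 116 and 19.6 against 38.8, 52.8 and 76.6 FPKM, and 12 had both below; over all tested genes the shares were 6.88% and 17.3%. The other beta-xylosidase 2 gene (Phvul.001G212100) measured 6.28, 11.9 and 6.01 FPKM in A18 and 14.7, 14.5 and 27.3 FPKM in nts, without overlap and with a log2 change of 1.27 (adjusted p 0.203). The 4 genes that carry the same enzyme number under the plain description of a glycosyl hydrolase family protein summed to 45.7, 61.5 and 75.5 FPKM in A18 and 43.2, 54.3 and 30.4 FPKM in nts.

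Xylanases of family 10 cut the xylan backbone itself. Both of their genes with a mean of at least 5 FPKM were lower in each nts library than in any A18 library, as were 14.3% of all tested genes. Phvul.009G075400 measured 11.4, 6.66 and 23.5 FPKM in A18 and 1.97, 3.48 and 6.58 FPKM in nts (log2 change -1.67, adjusted p 0.212), where nts replicate 3 lay just below A18 replicate 2. Phvul.001G032300 measured 13.7, 13.0 and 30.4 FPKM in A18 and 10.0, 6.60 and 10.3 FPKM in nts (log2 change -0.99, adjusted p 0.244). Of the other 6 genes, 3 had no count in any library and 3 were tested, with log2 changes of -0.19, 0.02 and 1.41.

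The beta-galactosidases release galactose from pectin side chains, arabinogalactan proteins and xyloglucan. With the genes described as family 35, the family to which plant beta-galactosidases belong, they were 21 genes, of which 17 were tested. By the study's thresholds 3 of them lay higher in nts and 2 lay lower, against 2.06% and 3.37% of all tested genes. Their median log2 change was 0.91, the highest of the enzyme groups, with 12 above 0 and 5 below. Beta-galactosidase 12 (Phvul.009G232500, chromosome 9, 34915904 to 34921159) held the largest level in A18, at 474, 126 and 330 FPKM, and measured 10.4, 8.54 and 77.7 FPKM in nts. The genotypes did not overlap, but A18 replicate 2 and nts replicate 3 were the nearest to each other. Its log2 change was -3.12 ± 1.01 (SE, adjusted p 0.187), and without A18 replicate 1 it missed the thresholds (p 0.0508, edgeR).

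Beta-galactosidase 10 had the highest mean level of the group in nts. In Arabidopsis the enzyme of this name acts on xyloglucan. The bean gene (Phvul.009G153100, chromosome 9, 22714947 to 22724070) measured 7.22, 25.1 and 6.11 FPKM in A18 and 159, 175 and 133 FPKM in nts. All 3 nts libraries were several-fold above the highest A18 library, which was A18 replicate 2. The log2 change was 3.61 ± 0.68 (SE, adjusted p 0.0777) and 4.72 without A18 replicate 2.

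Its neighbour had the reverse pattern. Phvul.009G153000, a family 35 gene that ends 6947 bases before it (chromosome 9, 22701165 to 22708000), measured 8.25, 2.79 and 4.04 FPKM in A18 and 0.317, 0.764 and 0.488 FPKM in nts. Its log2 change was -3.15 ± 0.52 (SE, adjusted p 0.0663), again without overlap. The ratio of beta-galactosidase 10 to this neighbour was 0.875, 9.0 and 1.51 in A18 and 502, 229 and 273 in nts. Both genes stayed past the study's thresholds without any 1 library. How reads that match neighbouring or similar copies were shared out is not given in the sources used here.

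Several other beta-galactosidase genes share a name. All 3 genes described as beta-galactosidase 3 were higher in nts at an unadjusted p under 0.05 (edgeR), as were 8.39% of all tested genes. These 3 genes were named after their values were seen. Their log2 changes were 0.91, 0.91 and 1.08, with adjusted p-values from 0.221 to 0.261. Together the 3 genes measured 93.2, 82.2 and 65.1 FPKM in A18 and 152, 193 and 107 FPKM in nts, and 1 of them (Phvul.002G167200) did not overlap. The 5 genes described as beta-galactosidase 8 went both ways: Phvul.011G074900 measured 4.55, 3.02 and 3.71 FPKM in A18 and 10.7, 9.12 and 17 FPKM in nts (log2 change 1.80, adjusted p 0.0670), and Phvul.011G077600 measured 1.99, 0.103 and 4.17 FPKM in A18 and 0.0599, 0.0182 and 0.390 FPKM in nts (log2 change -3.54, adjusted p 0.280). The scarce beta-galactosidase 8 gene Phvul.011G075900 passed the study's thresholds at 0.118, 0.0312 and 0.321 against 0.943, 0.640 and 1.98 FPKM (log2 change 3.01 ± 0.89, SE), though not without A18 replicate 2 and nts replicate 3 together. The family 35 gene Phvul.009G119632 passed them at 0.0967, 0.189 and 0.166 against 1.45, 0.846 and 0.172 FPKM (log2 change 2.47 ± 0.85, SE), where nts replicate 3 lay within the A18 range. It missed them without any 1 of A18 replicate 1, A18 replicate 3, nts replicate 1 or nts replicate 2, with p-values up to 0.11. Beta-galactosidase 5 (Phvul.001G010900) overlapped, at 75.5, 120 and 41.1 against 118, 91.4 and 111 FPKM.

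**Figure D5:**
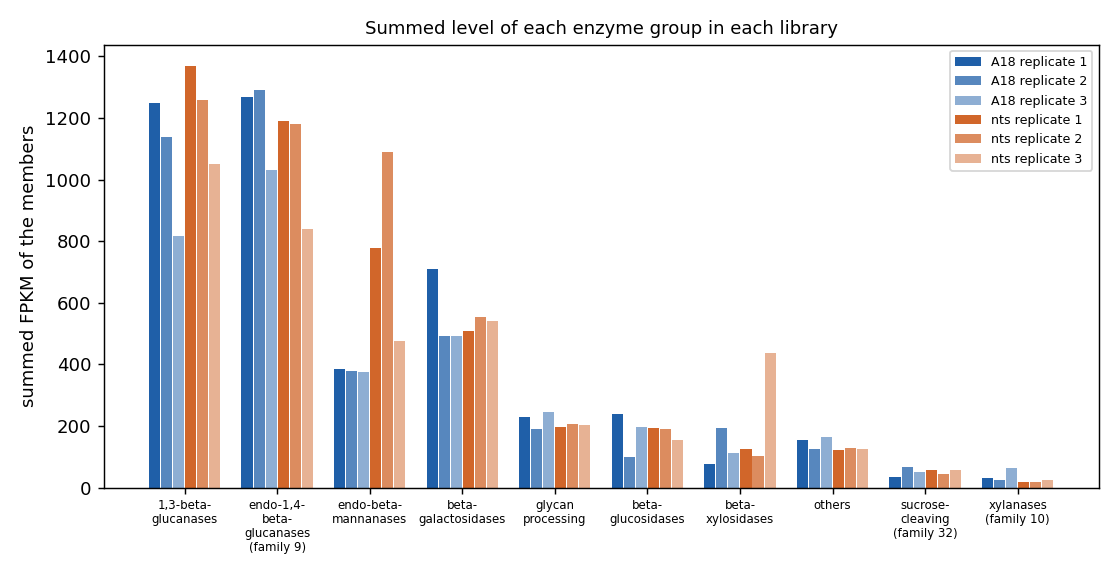
Summed FPKM of the genes of each enzyme group in each library (bars from 0, A18 in blue, nts in orange, 1 bar per replicate). The mannanase sum is higher in all 3 nts libraries (477 to 1090 FPKM) than in A18 (377 to 385 FPKM), the beta-xylosidase sum is highest in nts replicate 3 (436 FPKM), and the sums of most other groups overlap between genotypes.

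The 1,3-beta-glucanases, grouped by family 17 or enzyme number and without the family 81 genes, were the most numerous, with 46 genes. All 46 are annotated in the table as anchored to the plasma membrane, a property the choice of genes did not use. Of the 40 tested, 0 were higher at the study's thresholds and 2 lower, against 2.06% and 3.37% of all tested genes. The log2 change lay above 0 in 19 and below in 21, with a median of -0.20. The most abundant, Phvul.009G024000, measured 159, 176 and 113 FPKM in A18 and 388, 285 and 357 FPKM in nts. It was higher in every nts library, with a log2 change of 1.26 ± 0.30 (SE, adjusted p 0.113). The next, Phvul.001G014900, measured 310, 193 and 164 FPKM in A18 and 142, 143 and 183 FPKM in nts and overlapped (log2 change -0.42 ± 0.30, SE). Phvul.008G010600 ranged from 75.5 to 235 FPKM in A18 and from 103 to 313 FPKM in nts.

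At an unadjusted p under 0.05, 7 of the 1,3-beta-glucanases were higher and 6 lower, against 8.39% and 9.58% of all tested genes. Without overlap, 8 were higher and 6 lower, against 10.0% and 14.3% of all tested genes. Phvul.002G099500 (chromosome 2, 19423452 to 19425656) measured 9.70, 2.57 and 4.52 FPKM in A18 and 0.312, 0.449 and 0.497 FPKM in nts. Every nts library lay well below every A18 library, the log2 change was -3.60 ± 0.55 (SE, adjusted p 0.0644), and it stayed past the thresholds without any 1 library. Phvul.009G256400 (chromosome 9, 37706130 to 37708474) measured 14.6, 2.15 and 5.02 FPKM in A18 and 1.85, 1.29 and 1.13 FPKM in nts. Its log2 change of -2.22 ± 0.68 (SE, adjusted p 0.173) shrank to -1.26 without A18 replicate 1 (p 0.0539, edgeR). Phvul.008G271000 was also lower without overlap, at 115, 152 and 76.0 against 45.4, 68.5 and 40.7 FPKM (log2 change -1.10), and so was Phvul.003G166400, at 46.4, 42.2 and 54.6 against 26.4, 19.0 and 25.7 FPKM (log2 change -0.92). On the other side, Phvul.008G213400 was higher with overlap, at 40.0, 20.3 and 25.3 against 87.9, 88.2 and 29.9 FPKM (log2 change 1.35, adjusted p 0.190), where nts replicate 3 lay among the A18 libraries. Phvul.001G109400 was higher without overlap, at 16.4, 17.6 and 12.5 against 26.5, 23.4 and 35.7 FPKM (log2 change 0.95). Summed over the 46 genes the level was 1250, 1140 and 817 FPKM in A18 and 1370, 1260 and 1050 FPKM in nts, with overlap.

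Of the 8 beta-glucosidases, which release single glucose units from short chains and from stored glycosides, 7 were tested. Of these 0 passed the study's thresholds, against 5.43% of all tested genes. Phvul.008G210100 had the lowest p of the 7 and measured 1.36, 1.79 and 1.49 FPKM in A18 and 4.71, 5.64 and 6.02 FPKM in nts. The replicates of each genotype were close, and the log2 change of 1.88 (adjusted p 0.0626) fell just short of the size threshold. Phvul.007G250300 measured 19.1, 13.2 and 15.1 FPKM in A18 and 67.3, 66.3 and 10.0 FPKM in nts, so that nts replicate 3 lay below every A18 library. Phvul.001G112600 varied within A18, at 117, 7.77 and 74.7 FPKM, against 25.5, 17.1 and 19.5 FPKM in nts (log2 change -1.54, adjusted p 0.371), and was -2.03 without A18 replicate 2. Phvul.006G065600 ranged from 39.2 to 57.4 FPKM in A18 and from 41.3 to 64.1 FPKM in nts.

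Families 31, 38, 47 and 85, the glycan-processing group, hold alpha-glucosidases, alpha-mannosidases and an endo-glycosidase, many of which trim the sugar chains of glycoproteins. Of their 13 genes 12 were tested and 0 passed the study's thresholds, against 5.43% of all tested genes. The group's median log2 change was 0.08, and its summed level ran from 191 to 244 FPKM in A18 and from 197 to 206 FPKM in nts. The alpha-glucosidase gene Phvul.009G153400, of family 31, measured 49.7, 46.3 and 45.4 FPKM in A18 and 45.6, 53.3 and 41 FPKM in nts (log2 change 0.06 ± 0.19, SE). It lies beside beta-galactosidase 10 and its neighbour on chromosome 9, and its change was near 0 where theirs were 3.61 and -3.15. Phvul.006G125100, also of family 31 but with the enzyme number of general alpha-glucosidases and not that of the glycoprotein-trimming ones, had means of 6.77 FPKM in A18 and 11.8 FPKM in nts with overlap. The alpha-mannosidase genes of family 47 (Phvul.003G138408, log2 change 0.10, and Phvul.003G197300, 0.39) and of family 38 (Phvul.001G084700, -0.73, and Phvul.009G161600, 0.52) overlapped between genotypes. The single family 85 gene (Phvul.001G245900), of the enzymes that cut glycans from proteins, did not overlap, at 44.3, 24.6 and 30.1 against 14.9, 20.1 and 23.0 FPKM (log2 change -0.68, adjusted p 0.243).

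Family 32 holds the enzymes that split sucrose, and 8 of its genes carry descriptions without the word invertase. Of the 6 tested, 0 had an unadjusted p under 0.05 in edgeR, where 8.39% of all tested genes were higher and 9.58% lower. DESeq2 called 0 of these 6, against 10.2% of all genes it tested. Voom with quality weights and edgeR without both A18 replicate 2 and nts replicate 3 each called Phvul.001G036800 lower and Phvul.003G217900 higher, and edgeR without A18 replicate 2 alone called the latter. Phvul.003G217900 depended on A18 replicate 2: it measured 0.588, 23.9 and 1.57 FPKM in A18 and 37.3, 16.6 and 21.7 FPKM in nts, with a log2 change of 1.5 ± 1.31 (SE) that was 4.71 without that library. Phvul.001G036800 measured 25.0, 25.4 and 34.5 FPKM in A18 and 15.0, 15.1 and 25.6 FPKM in nts (log2 change -0.52). Among the 24 genes of the remaining families, 18 were tested and 0 passed the study's thresholds, against 5.43% of all tested genes. The family 81 genes Phvul.004G049300 and Phvul.008G033000 had log2 changes of -0.88 and 0.11, the family 5 cellulase Phvul.002G258500 -0.91, the family 43 gene Phvul.002G010600 -0.02, the chitinase-type gene Phvul.003G158500 -0.13, and the putative endonuclease or hydrolase genes Phvul.003G027700 and Phvul.008G035000 -0.31 and -0.45, the cellulase and the last pair without overlap.

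The 167 genes summed to 4390, 3990 and 3540 FPKM in A18 and 4560, 4770 and 3910 FPKM in nts, with overlap, while 9 genes had a mean of at least 100 FPKM and 51 a mean under 1 FPKM. The 5 most abundant genes made up 30.1%, 32.1% and 29.0% of the sum in A18 and 35.8%, 41.5% and 31% in nts. Of the 15 genes past the study's thresholds, 9 had a mean of at least 5 FPKM. At the bottom of the range, 5 genes had counts in nts alone and 4 in A18 alone. The most abundant of these, the glycosyl hydrolase 9C1 gene Phvul.011G030300, was at 0 in all A18 libraries and had 245, 11 and 0 counts in nts, and it fell to the filter on low counts of the reported fit. DESeq2, run without that filter, called it higher in nts.

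Within windows of 100 kb, 56 of the genes fell into 24 runs, of which 17 held a single enzyme group. In 9 of these 17 at least 2 genes were tested, and in 5 of the 9 the log2 changes had both signs, though in 3 of the 5 runs 1 of the changes was small (0.02, 0.07 and 0.26). An example is the beta-galactosidase 8 pair on chromosome 11, Phvul.011G074300 at -1.73 and Phvul.011G074900 at 1.80, of which the first lay at no more than 0.684 FPKM, overlapped between genotypes and had an adjusted p of 0.431 in edgeR. By annotated place, 111 of the 167 genes were assigned to the cell wall, the extracellular space or the plasma membrane anchor. Of the 87 tested among them 5 passed the study's thresholds as higher and 4 as lower, against 2.06% and 3.37% of all tested genes.

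Related genes outside the 167 were counted in the same fit, where 2.06% of all tested genes were higher at the study's thresholds and 3.37% lower. The cellulose, xylan and arabinogalactan lists and the secondary wall markers share description words, among them cellulose synthase A4, irregular xylem and FASCICLIN-like arabinogalactan-protein 11. A gene with such a description is counted in both, so these counts are not separate from those of the markers. Of 22 tested cellulose synthesis genes 0 were higher at the study's thresholds and 6 lower, and of 48 xylan genes 0 were higher and 5 lower. Of 71 galactan and arabinogalactan genes 2 were higher and 19 lower. One xylan gene, a protein of unknown function DUF579 (Phvul.001G262300), and 1 arabinogalactan gene, FASCICLIN-like arabinogalactan-protein 11, were called lower at adjusted p 0.0397 and 0.0319 in edgeR. Callose synthesis and binding genes gave 0 in either direction of 22 tested. So did the 4 tested genes found by the words mannan, mannosidase or cellulose-synthase-like A. The most abundant of these are described as alpha-mannosidase 2 (Phvul.008G254800) and golgi alpha-mannosidase II (Phvul.004G022500), so the list is not one of mannan genes alone. Outside the 167, 30 further beta-glucosidases were tested, of which 1 was higher and 4 lower. Of 16 chitinases 1 was higher and 2 lower, and of 106 pectin genes 9 were higher and 10 lower. Of 50 xyloglucan and expansin genes 6 were higher and 4 lower, and of 44 invertase genes, many of them inhibitors shared with the pectin list, 3 were higher and 5 lower. The 5 other genes found by the word glucanase alone gave 0 in either direction, with a median log2 change of 0.91. The most abundant of them are described as a Barwin-like endoglucanases superfamily protein (Phvul.008G120700) and xyloglucanase 113 (Phvul.003G278500).

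Besides the secondary wall list, 7 lists chosen by description words for other cell types were counted, and 0 of their genes were called at an adjusted p under 0.05 in edgeR. The most abundant flower and pollen gene is described as a Pollen Ole e 1 allergen and extensin family protein (mean 1300 FPKM). The most abundant seed gene is described as a lipid-transfer protein/seed storage 2S albumin superfamily protein (mean 1530 FPKM). Such family names need not mark pollen or seed cells. The 44 tested green tissue genes had a median log2 change of 0.63, and 22 were higher at an unadjusted p under 0.05. The 94 cell division genes had a median of 0.28 and the 21 epidermis genes 0.61, the 27 shoot meristem genes 0.01 (14 above 0 and 13 below), the 19 phloem genes -0.22, the 33 flower and pollen genes -0.33 and the 106 seed genes -0.30. At that unadjusted p, 1 shoot meristem gene was higher and 9 were lower. The counts were 9 and 2 for epidermis, 13 and 0 for cell division, and 0 and 4 for phloem. They were 5 and 7 for flower and pollen and 15 and 20 for seed. Over all tested genes, 8.39% were higher and 9.58% lower. Their part in the values of the glycosyl hydrolases was not tested.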

How the data were processed

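The submitters' processing notes name cutadapt 1.9 and FastQC. For the aligner, counter, strand setting, genome build and annotation, nothing is given in the sources used here, so coordinates are printed as in the table. The deposited table holds raw counts per gene and FPKM, per the file headers. Between 29.8% and 33.0% of counts from 1 to 39 were divisible by 4 (23.1% of whole numbers are), so a count need not equal 1 fragment. In the FPKM deposited by the authors, genes with 0 counts stand at 0.0001, set here to 0.

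Counts were tested with edgeR 4.0.16 in R 4.3.3 (quasi-likelihood, robust, TMM factors 0.957 to 1.06, filterByExpr), genotype being the only term, over 21126 genes with Benjamini-Hochberg adjustment over all of them. Log2 changes are nts minus A18, and the SE is the size of that change over the root of the F value and so restates the test. The common biological coefficient of variation was 0.487, so the spread between libraries sets the precision of all but scarce genes, where counting error adds to it. No library was a duplicate of another (log2 CPM correlated at 0.887 to 0.961 within genotypes). Deviations from the genotype mean correlated at -0.0163, -0.13 and 0.0385 between samples of equal replicate number. Between samples of unequal number they ran from -0.148 to 0.111. No pairing by number was seen, but 3 libraries per genotype are too few to exclude one.

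The genes and the lists were chosen with earlier results of these data known. Enzyme groups follow family, name or enzyme number. Genes named by rule were those past the study's thresholds, the 2 most abundant of each described family with a mean of at least 5 FPKM, single genes of small families from 20 FPKM and the 5 most abundant overall. Other genes named were chosen after their values were seen. Alternatives were DESeq2 1.42.0, limma 3.58.1 on log2 FPKM, other scalings and filters, a replicate block and left-out libraries.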

Additional observations from a re-analysis of the deposited data

How the results depend on the processing

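Over 18 alternatives, 64 glycosyl hydrolase genes gave 1152 log2 changes, of which 19 changed sign, and 56 of the 64 genes kept their direction throughout. These 64 were the genes named by rule and the other genes with an unadjusted p under 0.05 in the reported edgeR fit. Many were thus chosen by their change in the same libraries, which makes a change of sign unlikely. The 56 of 64 therefore does not measure how stable the 167 genes are. The number of genes called depended strongly on the test. With an adjusted p under 0.05, 20 genes in all and 0 glycosyl hydrolases were called in the fit reported here. DESeq2 called 2384 and 29 (17 higher, 12 lower), limma on log2(FPKM + 1) 438 and 5, on log2(FPKM + 0.1) 450 and 6, and voom with quality weights 5087 and 44. Without both intermediate libraries (A18 replicate 2 and nts replicate 3) edgeR called 4267 and 41. Without a filter on low counts it called 37 genes in all. Leaving out 1 library at a time gave 0 to 964 genes and 0 to 10 glycosyl hydrolases, the 10 being reached without A18 replicate 2 and without nts replicate 3. The replicate block, which treats equal replicate numbers as pairs though the labels do not say so, called 0 genes, 0 of them glycosyl hydrolases. At the study's thresholds the 7 higher and 8 lower became 13 and 13 without both intermediate libraries, and 6 to 12 higher and 7 to 10 lower without 1 library. The counts over all tested genes moved too. There the 436 higher and 711 lower became 1041 and 1436 without both intermediate libraries, and 369 to 927 higher and 640 to 1213 lower without 1 library. At the same thresholds DESeq2 gave 10 higher and 9 lower glycosyl hydrolase genes (567 and 959 over all genes). Limma on log2(FPKM + 1) gave 5 and 6 (295 and 472), and on log2(FPKM + 0.1) 7 and 7 (493 and 855). Of the 15 genes, 9 stayed past the thresholds in all 6 fits without 1 library, and 14 without both intermediate libraries. The median log2 change of 0.10 ran from 0.01 to 0.23 without 1 library. The cause of these differences was not tested. Signs changed as follows. Without both intermediate libraries Phvul.003G138408 came to -0.01 and Phvul.006G065600 to -0.04, and with quality weights the latter came to -0.01. On log2(FPKM + 1) and log2(FPKM + 0.1), Phvul.008G033000 came to -0.03 and -0.05, and Phvul.009G153400 to -0.02 in both and to -0.01 without scaling factors. Without 1 library the ranges were -0.33 to 0.30 for Phvul.002G010600, -0.30 to 0.65 for Phvul.002G297600, -1.44 to 0.36 for Phvul.003G158500, -1.35 to 2.66 for Phvul.007G215100, -0.38 to 0.52 for Phvul.008G033000 and -0.01 to 0.14 for Phvul.009G153400. With 3 libraries per genotype and the spread measured here, a difference of small size would often miss the threshold, and 34 of the 167 genes did not pass the filter on low counts.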
